A study of Mus musculus with 20 samples.

Results

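The regions described here are the accessible chromatin peaks around 8 genes of bone morphogenetic protein (BMP) signalling in mouse embryonic stem (ES) cells: the ligand gene Bmp4, the receptor gene Bmpr1a, the signal transducer Smad1, the inhibitor Smad6, and the target genes Id1, Id2, Id3 and Id4. A peak was counted when it overlapped one of these genes, as annotated by GENCODE in the mouse genome build GRCm38 (mm10), or lay within 50000 bp of it. This gave 125 of the 102373 peaks of a merged list, and no peak fell in the windows of more than 1 of the genes.

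The peaks came from ATAC-seq, a method that cuts and tags accessible DNA with the Tn5 transposase, in ZHBTc4 cells. In this ES cell line the expression of Pou5f1, which encodes OCT4, is under a Tet-Off promoter that doxycycline (dox) turns off. All cells also carried YPet-MD and a lentiviral SNAP-tagged OCT4 driven by the PGK promoter. This OCT4 was fused either to the mitotic degron of Cyclin B1 (MD-OCT4) or to a mutated degron (MD*-OCT4). The mitotic degron strongly lowers the protein at the end of mitosis but does not remove all of it, and the mutated degron does not act in this way. For each construct, cells were treated with dox for 40 h and separated by Hoechst DNA stain and YPet-MD into 4 phases (early G1, late G1, S phase, late S/G2), with 2 replicates per group and 16 libraries in all, and 4 further libraries came from unsorted cells of both constructs without dox. The cells grew in serum with LIF and the inhibitors CHIR99021 and PD184352, and the OCT4 constructs were expressed below the wild-type level of OCT4, which limits these cells as a model of ordinary ES cells. The list holds the coordinates of peaks merged over the 16 dox-treated libraries and no value of any library, so that depth is unknown and neither the constructs nor the cell cycle phases could be compared at these genes. Every value below is therefore a description of the list, with no replicate and no test.

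BMP ligands such as BMP4 bind a complex of type I and type II receptors, of which BMPR1A is a type I receptor, and the activated receptor phosphorylates SMAD1 and its close relatives. Phosphorylated SMAD1 joins SMAD4, enters the nucleus and binds DNA, where a GC-rich element and a GTCT element at a fixed spacing form the known BMP response sequence. Id1 to Id4 encode helix-loop-helix proteins that lack a DNA-binding region and hold back E proteins, their partners in the same family, and Id genes are the classic direct targets of BMP in ES cells, where with LIF they help to keep cells undifferentiated. SMAD6 is an inhibitory SMAD that dampens the same pathway.

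The sequences shown first are those of the BMP-SMAD composite within member peaks, since the matches lay at Id genes alone among the members. The composite was searched as GGCGCC, then any 5 bases, then GTCT, on both strands. In each line the capitals mark GGCGCC and GTCT, and the spacing is in lower case. All coordinates are of GRCm38, and the sequences are of the plus strand except that of Id2, which is of the minus strand. Distances are from the annotated 5′ end of the gene in the direction of transcription, with upstream positions negative.
Id1, +3227 bp, chr2:152739429-152739527: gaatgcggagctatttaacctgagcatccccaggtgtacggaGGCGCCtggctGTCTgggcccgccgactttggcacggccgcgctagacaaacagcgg
Id2, -1721 bp, chr12:25098812-25098910: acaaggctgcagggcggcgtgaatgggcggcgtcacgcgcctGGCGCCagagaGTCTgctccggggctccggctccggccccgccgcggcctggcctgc
Id3, -2950 bp, chr4:136140498-136140596: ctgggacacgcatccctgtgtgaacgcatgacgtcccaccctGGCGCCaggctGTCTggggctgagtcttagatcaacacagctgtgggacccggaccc
Id3, +1303 bp, chr4:136144751-136144849: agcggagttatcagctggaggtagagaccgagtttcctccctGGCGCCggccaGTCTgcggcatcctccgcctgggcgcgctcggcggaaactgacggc
Id3, +4491 bp, chr4:136147939-136148037: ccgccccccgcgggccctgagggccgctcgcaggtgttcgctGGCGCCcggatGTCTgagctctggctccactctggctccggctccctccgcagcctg

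The composite was found in 5 of the 125 member peaks, or 4.00% (95% Wilson interval 1.72 to 9.02), while 0.0977% of all listed peaks (100 of 102373) held it. The 5 peaks lay at Id1, Id2 and Id3, and none lay at Id4, Bmp4, Bmpr1a, Smad1 or Smad6. Per length of peak sequence there were 0.0642 matches per kb in the member peaks and 0.00187 per kb in all listed peaks. The members were chosen as BMP genes and their targets, and the motif as the known BMP response sequence. These shares therefore describe that choice, give no independent support for a link between the motif and the genes, and were not tested. The median GC content was 62.4% over all 100 peaks with a composite match against 50.1% over the whole list, and it ran from 52.9% to 70.9% over the 5 member peaks, and the part of base composition in the shares was not tested.

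At Id1 the match lay in a narrow peak of 189 bp (chr2:152739376-152739564) downstream of the gene, 8 bp from the centre of the peak, and the GC content of this peak was 70.9%. At Id2 it lay upstream of the gene in a peak of 420 bp (chr12:25098605-25099024), 47 bp from the centre, with a GC content of 70.7%. Both peaks were between genes and more than 1000 bp from any annotated transcription start site (TSS).

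Id3 had 3 such peaks, on both sides of its start. The upstream peak was 447 bp wide (chr4:136140245-136140691) and had a GC content of 54.1%. The peak inside the gene was 160 bp wide (chr4:136144664-136144823), and the match itself lay in an intron. The downstream peak was the widest distal peak of the Id3 window at 1382 bp (chr4:136146727-136148108), and its match was 571 bp from the centre. Of the 21938 protein-coding genes, 244 (1.11%) had at least 1 composite-bearing peak in a window drawn in the same way, and only 2 had 3, Id3 and its neighbour E2f2, whose window takes in the same peaks.

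The spacer bases differed among the matches. The spacers of Id1 and of the upstream Id3 match differed at 1 of 5 positions, and the other pairs of matches differed at 2 to 4. Outside the peaks the Id2 window held 1 further composite, at +4089 bp, and the Id4 window held 1 in an intron of Id4, at +1669 bp. The windows of all 8 genes thus held 7 composites, of which 5 were in listed peaks. Over all assembled chromosomes 102 of 447 composites (22.8%) lay in listed peaks, which covered 2.06% of the assembled bases. Of the GC-rich element GGCGCC alone, 26.2% of 77578 occurrences lay in listed peaks, so that the composite lay in peaks at a share no higher than that of this element.

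**Figure D1:**
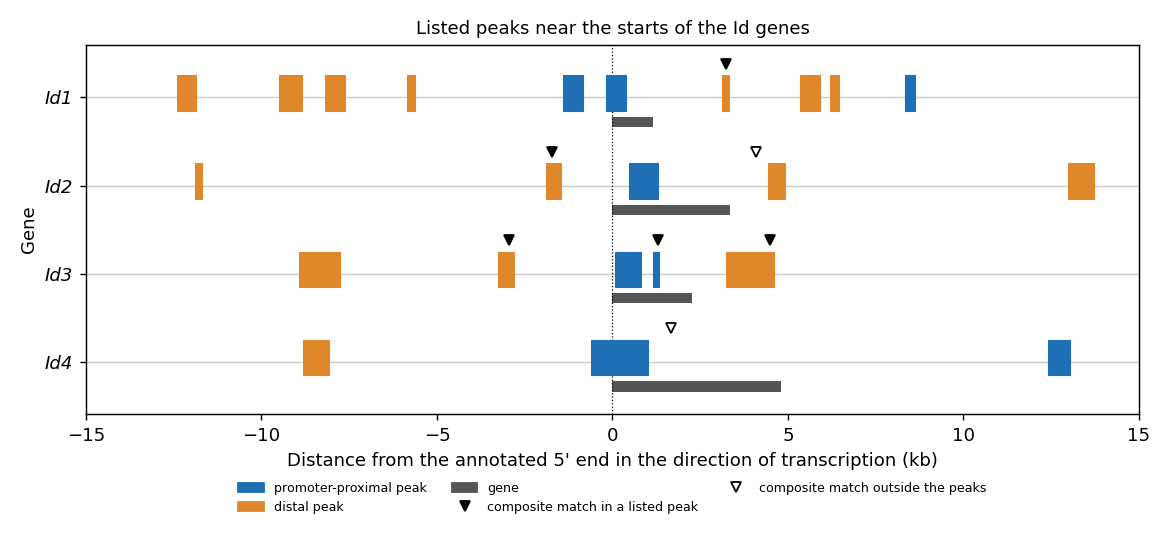
Listed peaks within 15 kb of the starts of Id1 to Id4, as boxes to scale on an axis of distance from the annotated 5′ end in kb, with blue for promoter-proximal and orange for distal peaks, grey bars for the genes, and triangles for composite matches, filled when inside a listed peak. Id3 has 3 filled triangles, Id1 and Id2 have 1 each, and the 1 match at Id4 lies outside its peaks.

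The spacing of the elements was varied after the data were seen. With 0, 1, 3, 6, 7, 8, 9 or 10 bases in place of 5, no member peak held both elements, and with 2 or 4 bases 1 member peak did, at Smad1 and Smad6 respectively. Over all listed peaks the number with both elements ran from 76 to 147 across the spacings, and the 100 at a spacing of 5 lay inside this range. The list as a whole therefore held no more composites at a spacing of 5 than at several other spacings.

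**Figure D2:**
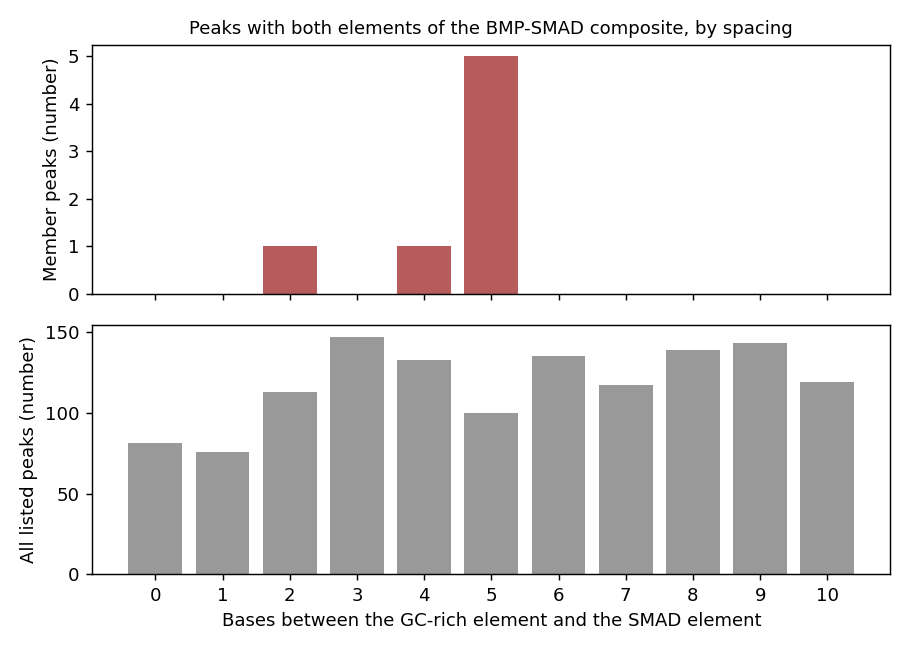
Number of member peaks (top) and of all listed peaks (bottom) that held GGCGCC and GTCT in this order, against the number of bases between the elements. At 5 bases 5 member peaks are counted, and over all listed peaks the 100 at this spacing sit among values from 76 to 147.

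When the second and the fifth base of the GC-rich element were left free (GNCGNC, 5 bases, GTCT), 9 member peaks matched, or 7.20%, against 0.877% of all listed peaks. Of the 4 peaks gained, 2 lay in the Id1 window and the other 2 at the starts of Smad1 and Smad6. In the Id1 window, the gained peak at +17.8 kb covered the start of the neighbour Cox4i2. The Id1 sequence at -1038 bp is shown because a BMP response element upstream of this gene is well known. It lay in a promoter-proximal peak of 579 bp (chr2:152734837-152735415) that was separate from the peak at the start itself. This peak also held an exact GGCGCC, at -1097 bp, which was not part of a composite match. The sequence at -1038 bp is given on the plus strand with the matched bases in capitals.
Id1, -1038 bp, chr2:152735176-152735250: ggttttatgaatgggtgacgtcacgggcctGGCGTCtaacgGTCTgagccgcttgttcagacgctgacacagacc

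The GC-rich element alone is part of the composite and was far more frequent. It was present in 25 member peaks (20%, interval 13.9 to 27.9) and in 12.5% of all listed peaks. The Id windows held 15 of these peaks, 7 of them at Id3, whereas no Bmp4 peak had the element.

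To ask whether the OCT4::SOX2 motif was present near these genes, the sequence ATTTGCAT followed directly by AACAATG was searched with up to 2 mismatches. None of the 125 member peaks had a match, and 0 of 125 allows a share of up to 2.40% by the limit of 3 counts that is used for a count of 0 (Wilson upper limit 2.98%), while 0.243% of all listed peaks (249) had a match. The member peaks are too few to set this 0 apart from the share in the list. With a different motif search, the study found the canonical motif more enriched at the OCT4-bound loci of these cells most sensitive to OCT4 loss. By that search it also reports, in another peak set, the canonical motif at far more loci. The strict search used here thus misses many sites, and its 0 does not show that the motif is absent near these genes. The octamer ATTTGCAT alone, which is the OCT part of that motif, was present in 1 member peak (0.800%, interval 0.141 to 4.39) against 2.56% of all listed peaks. The interval holds the share of the list. The peak with the octamer was the widest distal peak of the Bmpr1a window (2308 bp, chr14:34363159-34365466), far downstream of Bmpr1a, and its nearest protein-coding 5′ end is that of Fam25c. The octamer is given in capitals on the minus strand.
Bmpr1a window, octamer, chr14:34364813-34364880: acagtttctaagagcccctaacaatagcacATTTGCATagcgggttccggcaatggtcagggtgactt

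The remaining motifs searched belong to factors of the ES cell network and to CTCF. ESRRB (TCAAGGTCA) matched 9 member peaks, or 7.20% (interval 3.83 to 13.1), against 2.82% of all listed peaks. Per length of peak sequence there were 0.128 and 0.0544 matches per kb. ESRRB was 1 of 9 motifs searched, and its share was not tested. Every window except that of Bmp4 had at least 1 of the 9 peaks with an ESRRB match, Smad6 had 3, and a distal Smad1 peak of 391 bp downstream of the gene had a pair of matches. The SOX motif (CCATTGT or CCTTTGT) was in 26.4% of the member peaks and 21.3% of all listed peaks. The KLF motif (CCACACCC or CCACGCCC) was in 14.4% and 15.1%, the STAT3 motif (TTCCNGGAA), whose factor acts downstream of LIF, in 3.20% and 2.17%, and CTCF, which was allowed up to 1 mismatch, in 14.4% and 13.0%. For these 4 motifs the share of the whole list lay within the interval of the member share. The 4 STAT3 peaks were in the windows of Id1, Id2, Id4 and Bmp4, at 1 peak each. The paired ESRRB matches of Smad1 are shown in capitals on the plus strand.
Smad1, +67956 bp, chr8:79331528-79331596: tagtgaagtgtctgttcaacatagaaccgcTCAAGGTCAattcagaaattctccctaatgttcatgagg
Smad1, +67824 bp, chr8:79331660-79331728: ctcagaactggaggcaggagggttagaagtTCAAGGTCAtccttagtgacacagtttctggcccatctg

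All 8 members had a start peak, meaning a listed peak at most 1000 bp from the annotated 5′ end, as did 66.1% of the 21938 protein-coding genes. For 6 genes the peak covered the 5′ end, and for Id3 and Id2 it began 77 and 466 bp away. Both of these genes have an annotated RefSeq start further inside the gene, 325 bp from the GENCODE 5′ end at Id3 and 1048 bp at Id2, and these starts did lie in the peaks. RefSeq promoters were matched for 7 members, Id1 being the one not matched, and the peaks covered 77.3% of the 300 bases around the start of Bmp4 and at least 99.3% at the other 6.

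The start peaks fell into broad and narrow ones. Those of Bmpr1a (1770 bp, chr14:34501642-34503411), Id4 (1644 bp, chr13:48260609-48262252), Smad1 (1623 bp, chr8:79398304-79399926) and Smad6 (1511 bp, chr9:64021863-64023373) were wider than 97.5% or more of all listed peaks. Those of Id2 (835 bp, chr12:25095840-25096674), Id3 (730 bp, chr4:136143574-136144303), Id1 (570 bp, chr2:152736066-152736635) and Bmp4 (569 bp, chr14:46390283-46390851) were wider than 65.2% to 81.3% of the list. Most of the list is distal, and the median of all promoter-proximal peaks was 815 bp. The start peaks of Id3, Id1 and Bmp4 were narrower than that median, and that of Id2 was slightly wider. The broad group thus held both a receptor and SMAD genes together with Id4, and the other 3 Id genes were with the ligand. The ratio of observed to expected CpG, which is near 1 in CpG islands and low in most of the genome, was highest in the start peak of Bmpr1a at 1.04 and lowest in that of Bmp4 at 0.475, and the start peaks of Smad1 and Id4 followed Bmpr1a with 0.930 and 0.880. The Bmpr1a start peak also covered a start of Gm17110, and the part of each gene in it cannot be told apart.

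The number of peaks differed widely among the members, whose windows differ in length because the genes do. Bmp4, a gene of 7.2 kb, had 15 peaks in its window, more than 73.3% of protein-coding genes have, of which 8 were upstream, 2 in the gene and 5 downstream. Its peaks clustered from -8.0 kb to +10.2 kb, where 6 formed a run, and the widest distal peak (1361 bp, chr14:46418446-46419806) was at -28457 bp in sequence between genes, in a run of 3 peaks. A peak at +3249 bp inside the gene coincided with the start of a shorter annotated Bmp4 transcript. Downstream, 1 peak was promoter-proximal to the neighbour Gm15217.

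Bmpr1a, the longest of the 8 genes at 92.6 kb, had 20 peaks, more than 90.0% of protein-coding genes have, but per 100 kb of window it had 10.4, which exceeded 69.1% of them. Of these, 9 were in the gene and 8 downstream, 7 of them nearest to the 5′ end of Mmrn2, and the 3 upstream peaks were nearest to that of 9230112D13Rik. Only 8 of the 20 had the Bmpr1a 5′ end as the nearest protein-coding 5′ end. In its introns, 3 peaks stood together from +42.1 to +44.2 kb near internal starts of Bmpr1a transcripts, and 1 of them was 94.4% soft-masked as repeats, the only member peak above 80%.

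Smad1 had the fewest peaks of the members with 6, and 30.4% of protein-coding genes had fewer. None lay upstream of the gene. Past the start peak the next were a close pair at +42.9 and +43.4 kb, near an internal start of a Smad1 transcript, and no listed peak lay between them and the start peak. The widest distal peak (491 bp, chr8:79305972-79306462) was downstream, in an exon of the non-coding gene Gm4890, and the outermost peak covered the start of the neighbour Mmaa.

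Smad6 had the most, with 27 peaks, more than 97.7% of protein-coding genes have, and all 27 had the Smad6 5′ end as the nearest protein-coding 5′ end. No other protein-coding gene started in its window. Of these peaks 14 were in the gene and 8 downstream, and 20 of them formed 1 run in which neighbours were at most 10000 bp apart, from +22.9 kb in an intron to +112.2 kb beyond the gene. The widest peak of the window (2153 bp) was at +93.7 kb at a start of the non-coding gene Gm36033, which 2 peaks of the run were close to. The widest distal peak (933 bp, chr9:64059958-64060890) was upstream at -38365 bp. The inhibitor and the transducer of the pathway were thus the extremes of the 8 genes in number of peaks, although their genes are of like length, 69.0 kb for Smad6 and 61.1 kb for Smad1.

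**Figure D3:**
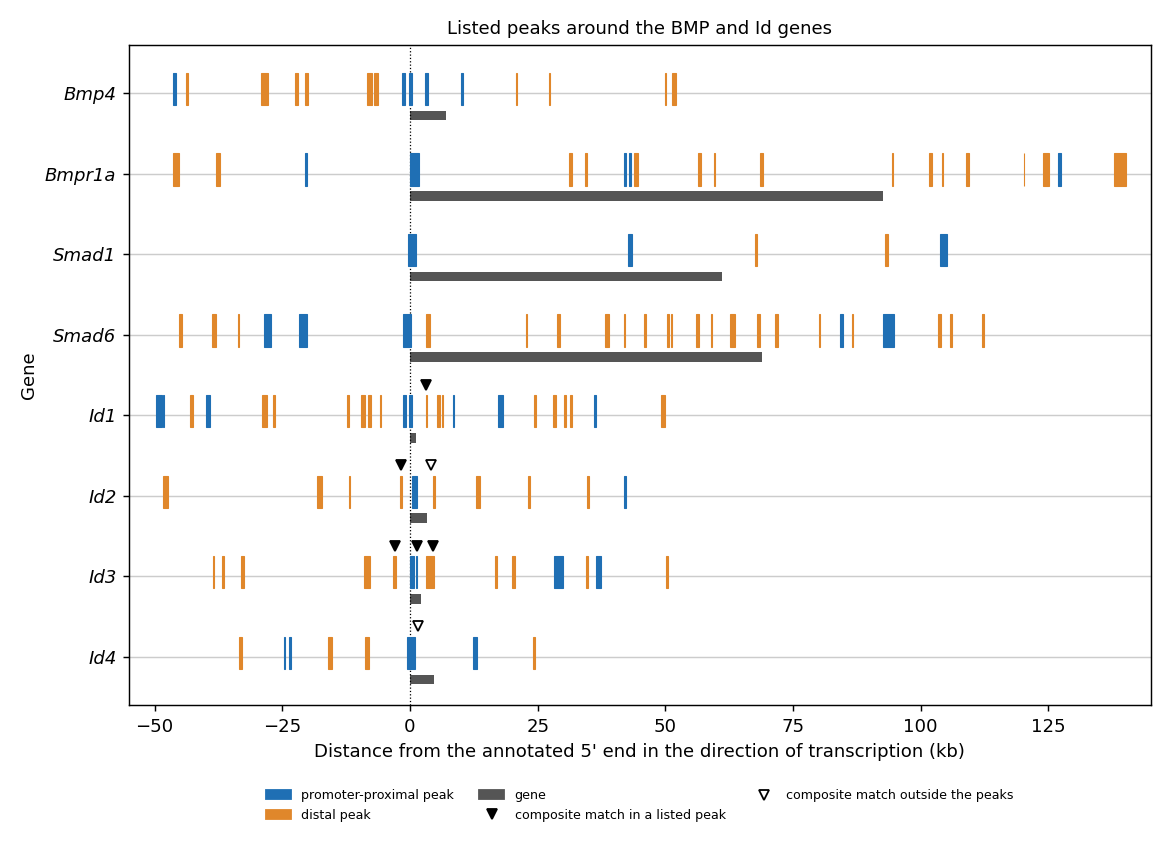
Listed peaks in the 8 windows as boxes to scale, on an axis of distance from the annotated 5′ end in kb in the direction of transcription, with blue for promoter-proximal peaks, orange for distal peaks, grey bars for the genes and triangles for composite matches. Smad6 (27 peaks) and Id1 (24) are dense, and Smad1 (6) has no peak upstream of its start peak.

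Among the target genes Id1 stood highest. Its gene spans only 1.2 kb, yet its window held 24 peaks, more than 95.7% of protein-coding genes have, and its 23.7 peaks per 100 kb exceeded 99.7% of them. A run of 17 peaks reached from -12.1 to +36.2 kb across the gene, and 9 peaks lay within 10 kb of the 5′ end. Only 10 of the 24 had Id1 as the nearest protein-coding gene, because Mcts2 and Cox4i2 also start in the window and have peaks at their own starts. The widest distal peak (1058 bp, chr2:152707184-152708241) was in an untranslated exon of H13, at -28539 bp.

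Id3 had 15 peaks, as many as Bmp4, in a window with 1 further protein-coding start, that of E2f2. The widest peak of this window (1589 bp) covered the E2f2 start, and 8 of the 15 were nearest to Id3. Id2 had 10 peaks, the median of all protein-coding genes, and Id4 had 8, more than 39.9% of them have. In both windows no other protein-coding gene had its annotated 5′ end, and every peak had the Id gene as the nearest protein-coding gene, but 1 Id2 peak was close to a further start of Kidins220. The widest distal peaks were upstream in both, at -17753 bp for Id2 (919 bp, chr12:25114434-25115352) and at -15629 bp for Id4 (902 bp, chr13:48245149-48246050), the latter in an intron of A330033J07Rik and Gm49291. The 4 Id genes thus ranged from the upper end of all genes to below their median. Scaled to window length the order among the Id genes was the same, with 14.7, 9.68 and 7.63 peaks per 100 kb for Id3, Id2 and Id4, all above the 6.97 of the median gene.

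**Figure D4:**
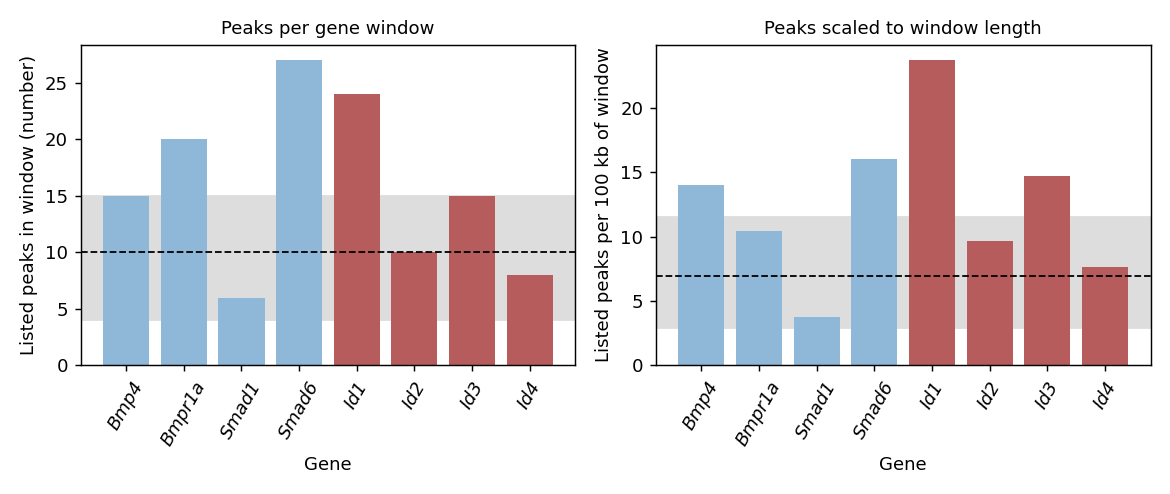
Listed peaks per gene window (left) and per 100 kb of window (right), with the median over 21938 protein-coding genes as a dashed line and their quartiles as a grey band. Id1 and Smad6 are above the band in both panels, Bmpr1a only in the left one, and Smad1 is the only member below the median in both.

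Of the 125 peaks, 84 (from 3 at Smad1 to 27 at Smad6) had the member itself as the nearest protein-coding gene, and the others may belong as much to neighbours. The annotation of the peak centres was 39.2% intronic, 47.2% between genes, 4.80% in coding exons, 6.40% in UTRs and 2.40% in non-coding exons, against 44.4%, 38.3%, 5.50%, 7.96% and 3.86% over the list. At most 1000 bp from a TSS of any transcript were 38 peaks, 30.4% (interval 23.0 to 38.9), against 25.1% of all listed peaks. The interval holds the share of the list.

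The median width of the member peaks was 516 bp (95% interval from order statistics 448 to 579), with quartiles of 325 and 734 bp, and that of the list was 415 bp, with quartiles of 233 and 708 bp. The member median was above that of the list for distal peaks. For promoter-proximal peaks it was below, but its interval held the list value. The 87 distal member peaks had a median of 480 bp (420 to 574) against 352 bp for all distal peaks, whereas the 38 promoter-proximal ones had a median of 574 bp (444 to 913) against 815 bp for all promoter-proximal peaks. Peaks narrower than 300 bp made up 22.4% of the members and 35.8% of the list. Median GC content was 53.2% and 50.1%, respectively. By gene, median widths ran from 456 bp at Smad1 to 634 bp at Id4. All intervals given here take the peaks as independent of each other and leave out every error but counting.

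**Figure D5:**
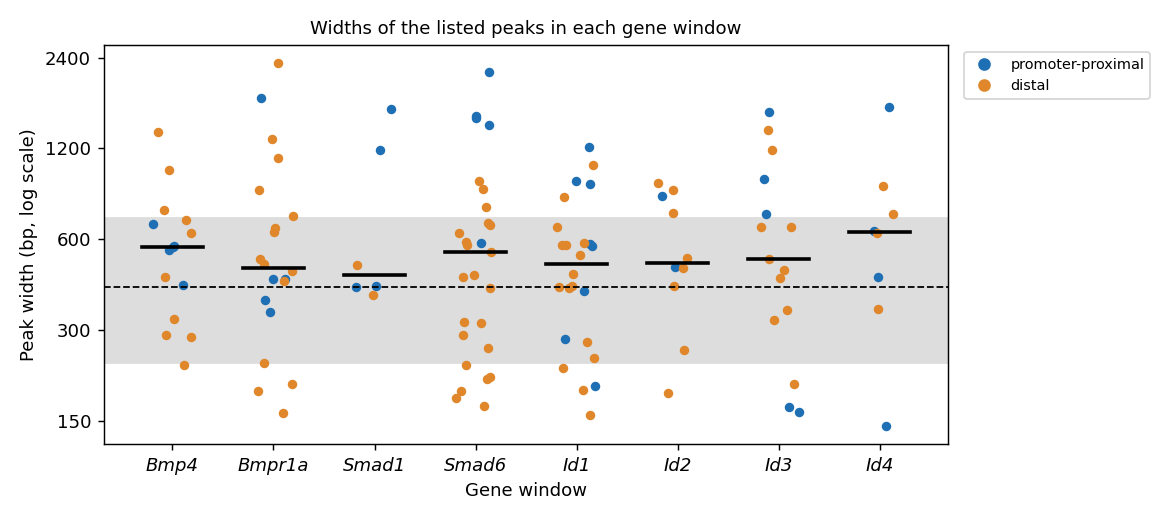
Width of each listed peak in the 8 windows, in bp on a log axis, with blue for promoter-proximal and orange for distal peaks, a black bar for the median of each window, a dashed line for the median of the whole list (415 bp) and a grey band for its quartiles. The 8 medians, from 456 to 634 bp, all sit above the dashed line, and widths within each window overlap those of every other.

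Counted by distance from the 5′ end in steps of 10 kb, the members had the most peaks from 0 to +10 kb, with a mean of 2.00 per gene, and 1.5 from -10 kb to 0. The corresponding means over all protein-coding genes were 1.06 and 0.796. On both sides the next step held fewer peaks, with 0.500 per member from -20 to -10 kb and 0.625 from +10 to +20 kb, which is below the 0.746 and 0.741 of all genes. In all other steps the member mean was 1.00 to 1.5, above the 0.695 to 0.732 of all genes. With 8 genes, these means rest on 4 to 16 peaks a step.

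Runs of 10 or more peaks held 38 of the member peaks (30.4%) against 15.4% of all listed peaks, and 37 of the 38 were in the 2 runs at Id1 and Smad6. At the edge of the windows, the outermost peaks inside lay 32848 to 48485 bp from their genes and were 323 to 2308 bp wide, while the nearest outside lay at 50555 bp (Id3) to 117826 bp (Bmp4) and were 169 to 554 bp wide.

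The other genes of the pathway were counted in the same way, from a list of 36 ligands, receptors, SMADs and their regulators, antagonists, target transcription factors and E proteins. A listed peak within 1000 bp of the 5′ end was present at 35 of them. The exception was the ligand gene Bmp5, whose nearest peak was 14875 bp away. The median number of peaks was 9.50, close to the 10.0 of all protein-coding genes, whereas the 8 members had a median of 15. The most peaks were at Tcf4 (33), which encodes an E protein, at the ligand gene Bmp7 (28) and at Acvrl1 (24), which encodes a type I receptor. The fewest were at the antagonist Grem1 (1), at Bmp5 (2), and at the antagonist Nog (3).

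By role, the antagonists of the list had the lowest median with 4.00 peaks over 7 genes, and receptors had 14.5 over 6, ligands 11 over 9, SMADs and intracellular regulators 10.5 over 6, target transcription factors 7 over 5, and the E proteins, partners of the Id proteins, 21 over 3. Per 100 kb of window the medians were 3.69 for the antagonists and 5.93 for ligands, 6.08 for SMADs and regulators, 6.61 for receptors, 6.72 for target transcription factors and 7.40 for E proteins, so that the gap between receptors and targets was small on this scale. The inhibitory SMAD gene Smad7 had 23, near the 27 of Smad6, while Smad5 and Smad9, which encode the close relatives of SMAD1, had 8 and 9, near the 6 of Smad1. Composite-bearing peaks were present in the windows of 3 of the 36 genes, and of 244 (1.11%) of the 21938 protein-coding genes. At Grem1 (1878 bp, chr2:113757382-113759259) and Msx1 (1355 bp, chr5:37823539-37824893) the peak covered the 5′ end, and at Msx2 (720 bp, chr13:53475713-53476432) it was centred at -2998 bp. Msx1 and Msx2 encode homeobox factors that BMP is known to induce, and Grem1 encodes a secreted BMP antagonist. The 36 genes were chosen for their part in the pathway, and these 3 are described with no test.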

How the data were processed

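ATAC-seq reads were processed by the authors. As the study's methods and the submitters' processing notes state, they were aligned to GRCm38 (mm10) with STAR 2.6.1c, duplicates were removed with Picard, peaks were called with MACS2 2.1.1.20160309 on read pairs, and the peaks of the 16 dox-treated libraries were merged with BEDTools. The deposited file has 3 columns, chromosome, start and end, and no column of any 1 library. Removal of regions over 5000 bp, of input peaks and of blacklisted regions is described, but 7 peaks over 5000 bp remain in the list, none of them in a member window.

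Starts were raised by 1 to count from 1. Genes and TSS came from GENCODE M21 and promoters from RefSeq (GRCm38). Sequence was read from GRCm38 with pysam 0.24.0. A motif match had to lie within a peak on either strand. Shares carry 95% Wilson intervals and medians intervals from binomial order statistics. No peak was filtered by width. Functions were tested on simulated data. Python 3.11.15, numpy 2.4.6 and matplotlib 3.10.9 were used.

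The members, gene lists and motifs were chosen with earlier results of these data known. Named were all members, the peak nearest each 5′ end, the widest distal peak, peaks with an OCT4::SOX2 or composite match, and, of the other pathway genes, the 3 with the most and the 3 with the fewest peaks, and any without a start peak; 1 gene that this rule names is not reported here. Other genes and peaks were named after their values were seen.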

Additional observations from a re-analysis of the deposited data

How the results depend on the processing

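Of the 35 alternatives over 6 results, 19 left the value within its interval or, for counts, within 1.5 times. The number of member peaks was 72 with windows of 20000 bp and 198 with windows of 100000 bp, in place of 125. The median width was 586 bp when peaks under 300 bp were left out. The promoter-proximal share was 22.4% at 500 bp from a TSS and 17.6% when protein-coding TSS alone were used. The composite share was 0 or 0.800% at spacings other than 5 bases and, as all 5 matches lay there, necessarily 0 without the windows of Id1, Id2 and Id3. Both alternatives were chosen after seeing the data. The 3 alternatives for the OCT4::SOX2 share were all stricter than the search that found 0, so they could not change it, count among the 19 by construction and say nothing of stability. The number of member genes with a start peak was 8, or 6 when the peak had to cover the 5′ end.

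No paired analysis was possible because values of single libraries were not at hand. For the same reason sequencing depth, differences between replicates and effects of the constructs are not given. Peaks open in few libraries and in many are not told apart. Consensus searches miss divergent sites. Whether input and blacklisted regions were removed from the list was not tested.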
